A study of Rattus norvegicus with 6 samples.

Results

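INS-1 cells, a rat insulinoma line that secretes insulin, carried less mRNA of nearly every expressed gene across a 77.1 Mb stretch of chromosome 2 when they overexpressed menin S487D than when they overexpressed menin S487A. The stretch holds the rows of the deposited gene table on rn6 chromosome 2 that start at or after 104916735 and end by 182037123. It held 547 rows, of which 9 were left out by name, and the other 538 are its members, out of 35362 rows in all. The rule leaves out 5 single genes and rows named for respiratory complex I, ribosomal, mitochondrial ribosomal or integrin genes. The stretch and its limits were chosen from the S487D against S487A values themselves, so those values are given here as a description, without a test.

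Both groups were INS-1 cells (passages 75 to 80) transduced with a pMX-puro retrovirus for Flag-tagged menin, with 1 serine replaced by alanine in one group (S487A) and by aspartate in the other (S487D), and each group held 3 mRNA libraries. Whether the 3 libraries derive from separate cultures is not in the labels, so their spread may be technical, and the mutant cannot be told apart from the transduced cell population that carries it. Cells with wild-type menin or no transgene were not analysed here. Menin, which Men1 encodes, acts in the nucleus as an adaptor for MLL histone methyltransferase complexes.

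Levels are RPKM, reads per kilobase of gene scaled to the library's assigned reads, given as mean ± SD over n = 3 libraries per group. Libraries held 9444801 to 10867549 assigned reads, which makes 3 reads over 1 kb worth 0.276 to 0.318 RPKM. Men1 stood at 71.2, 76.7 and 75.0 RPKM in S487A and 113, 103 and 119 RPKM in S487D. Each of the 10 beta cell markers examined was above 1 RPKM, and their summed level ran from 5283 to 5829 RPKM in S487A and from 17614 to 18807 RPKM in S487D. Other islet markers summed to 92.9 to 106 RPKM and 783 to 865 RPKM, with Sst and Ppy at 0. Of 6 acinar markers 5 were at 0, the summed endothelial, fibroblast and immune markers stayed under 1 RPKM, and of 4 duct markers only Krt7 was above 1 RPKM (217 ± 9.5 in S487A, 82.7 ± 2.0 in S487D). The part of these differences in the values below was not tested. In bulk RNA, fewer cells of a type and less RNA per cell cannot be told apart.

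As background, neighbouring genes along a mammalian chromosome are mostly unrelated in function, and each is transcribed from its own promoter or from a promoter shared with a head-to-head neighbour. The mRNA level of a gene depends on the number of gene copies, on transcription from its promoter and distal elements, and on the stability of the RNA. The block joins genes with such unrelated roles: the PI3-kinase catalytic subunit gene Pik3ca, the translocon genes Sec62 and Ssr3, the mitochondrial fusion gene Mfn1, the condensin gene Smc4 and the fibrinogen chain genes Fgb and Fgg.

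Windows at the annotated starts of 5 members are printed here. They contrast members with lower mRNA (Serp1, Eif2a, Rsrc1 and Kcnmb2) with a member whose groups overlapped (Rap2b). Each covers 250 bases before to 50 after the gene's start, from RefSeq on GRCr8, a later assembly than the files' rn6. The last 50 bases of the Rap2b window begin with atg, and the Rap2b row is 552 bases long. Its annotated start may thus be that of the coding sequence, so its window may not hold the promoter. Capitals mark CCAAT, or ATTGG on the other strand. Serp1 and Eif2a are transcribed away from each other and share 272 bases of the windows chr2:144911138-144911437 (minus strand) and chr2:144911110-144911409 (plus strand). The Rsrc1 window is chr2:153536589-153536888, that of Kcnmb2 chr2:116599049-116599348 and that of Rap2b chr2:147749137-147749436, all on the plus strand and all GRCr8.
Serp1: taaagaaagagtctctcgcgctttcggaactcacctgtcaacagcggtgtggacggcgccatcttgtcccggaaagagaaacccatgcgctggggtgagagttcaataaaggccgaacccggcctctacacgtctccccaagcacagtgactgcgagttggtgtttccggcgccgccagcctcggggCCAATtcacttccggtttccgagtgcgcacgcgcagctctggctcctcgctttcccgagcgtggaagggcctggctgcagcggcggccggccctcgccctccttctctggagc
Eif2a: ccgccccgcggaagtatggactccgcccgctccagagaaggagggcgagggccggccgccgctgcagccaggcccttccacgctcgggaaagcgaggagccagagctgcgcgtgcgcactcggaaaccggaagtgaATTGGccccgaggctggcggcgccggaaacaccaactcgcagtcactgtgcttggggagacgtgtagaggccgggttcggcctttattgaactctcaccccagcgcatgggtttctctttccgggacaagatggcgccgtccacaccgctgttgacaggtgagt
Rsrc1: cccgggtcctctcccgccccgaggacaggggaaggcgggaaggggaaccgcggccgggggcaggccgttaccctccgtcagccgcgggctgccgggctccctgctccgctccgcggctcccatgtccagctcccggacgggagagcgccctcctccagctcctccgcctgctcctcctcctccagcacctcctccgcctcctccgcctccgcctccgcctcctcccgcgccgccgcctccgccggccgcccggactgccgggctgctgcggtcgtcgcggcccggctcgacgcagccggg
Kcnmb2: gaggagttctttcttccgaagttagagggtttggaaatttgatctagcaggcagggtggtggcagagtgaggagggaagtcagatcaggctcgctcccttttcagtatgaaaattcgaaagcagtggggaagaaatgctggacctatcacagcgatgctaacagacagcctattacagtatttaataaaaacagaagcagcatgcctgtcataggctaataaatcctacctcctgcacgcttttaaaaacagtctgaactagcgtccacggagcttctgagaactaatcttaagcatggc
Rap2b: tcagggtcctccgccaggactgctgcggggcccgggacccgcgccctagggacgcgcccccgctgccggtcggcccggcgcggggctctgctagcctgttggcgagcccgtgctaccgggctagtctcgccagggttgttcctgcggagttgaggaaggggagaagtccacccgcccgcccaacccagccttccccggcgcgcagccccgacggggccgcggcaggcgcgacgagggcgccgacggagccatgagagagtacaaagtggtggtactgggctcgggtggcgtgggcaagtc

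The CpG dinucleotide, frequent in promoters of broadly expressed genes, occurred 28 times in the Serp1 window and 30 times in that of Eif2a. It occurred 40 times in the window of Rsrc1, 35 times in that of Rap2b and 7 times in that of Kcnmb2, the member with the lowest log2 change. A promoter was found in the RefSeq table for 112 of the 128 members that passed a filter on low values (given below) and had a RefSeq name. Their median GC content was 60.8%, beside 61.3% for the 9378 tested genes of the whole table that had one, and 74.1% against 75.9% had a ratio of observed to expected CpG above 0.6. CCAAT occurred on either strand in 36.6% of the members' promoters, 38.0% of those of all tested genes and 37.7% of all 27457 promoters. The cAMP response element TGACGTCA occurred in 4.46, 3.37 and 1.91% of these sets, the forkhead motif GTAAACA in 3.57, 2.18 and 3.76%, the AP-1 motif TGANTCA in 5.36, 4.33 and 7.33%, and the TATA box TATAAA in 4.46, 6.10 and 14.3%. The motifs do not contain one another. In these counts the members' promoters lay near those of the tested genes in general.

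The block was sparse in expressed genes. Of its 538 members, 232 had no read in any library, 167 had reads but stayed below the filter, which asks for 1 RPKM or more in 3 or more libraries, and 139 passed it and were tested. Of the 139, 10 passed through S487A alone, with 1 RPKM or more in every S487A library and in no S487D library, and 0 passed through S487D alone. The 139 are 25.8% of members, where 35.4% of all rows passed. They lay at 1.80 per Mb, against 3.33 per Mb on the rest of chromosome 2. Names matched RefSeq for 349 members: 241 protein-coding genes, of which 121 passed the filter, 81 pseudogenes, of which 7 passed, 26 long noncoding RNAs, of which 0 passed, and the telomerase RNA gene. Of the 189 members without a match, 11 passed. The widest gaps between members that passed were 6.35 Mb, below Shox2, with 11 members of which 2 had any read, and 6.15 Mb, above Sclt1, with 34 members of which 9 had any read.

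Members took 0.642 ± 0.022% of assigned reads in S487A and 0.357 ± 0.011% in S487D, a ratio of 0.557. The S487A libraries held 0.667, 0.625 and 0.633% and the S487D libraries 0.369, 0.348 and 0.356%. The groups stood apart, and each S487D library was well below each S487A library. The rest of chromosome 2 took 4.63 ± 0.069% and 4.23 ± 0.053%, a ratio of 0.913. Among the 139 members that passed the filter, the median log2 change (S487D minus S487A, of log2(RPKM + 1)) was -0.75, beside -0.01 for all 12527 genes tested and -0.03 for the 631 on the rest of chromosome 2. The change was below 0 in 131 members and 0 or more in 8. In 122 members every S487D library was below every S487A library, beside 29.5% of all tested genes. Every S487D library was higher in 0 members, beside 25.0% of all tested genes. The fit across all genes (limma, Benjamini-Hochberg adjusted p under 0.05) called 121 members lower, where it called 24.3% of all tested genes lower, and 0 members higher, where it called 20.1% higher and 44.4% in either direction. Since the block was chosen on this contrast, nothing is read from these counts.

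**Figure D1:**
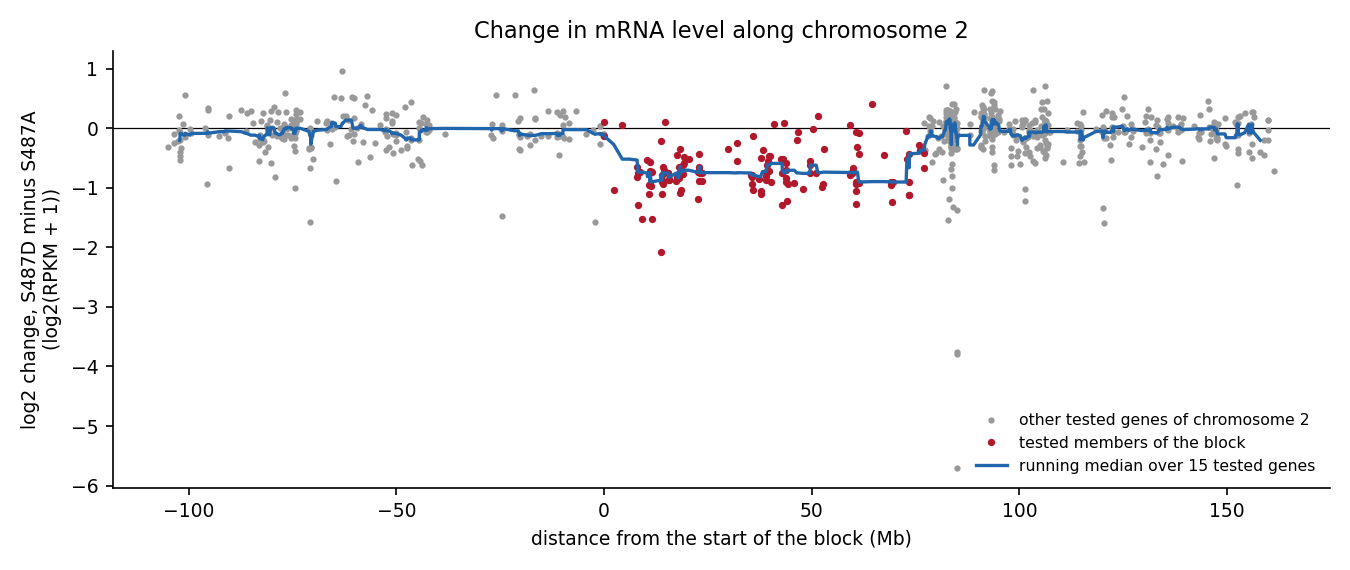
Log2 change of each tested gene of chromosome 2 (vertical axis, S487D minus S487A on the log2(RPKM + 1) scale) against distance in Mb from the start of the block; red points are members, grey points other genes, and the blue line is the running median over 15 tested genes. Left-out rows are not drawn as points but enter the line. The line runs near 0 on both sides and drops to a level near the members' median of -0.75 through most of the block.

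Ratios without a pseudocount show the size of the difference. Over the 97 members with a mean of at least 5 RPKM in a group, the ratio of mean RPKM, S487D over S487A, had a median of 0.536 and quartiles of 0.461 and 0.609. For the 9111 other tested genes at that level, the median was 1.01 and the quartiles 0.885 and 1.12. The ratio lay from 0.4 to 0.65 in 70 of the 97 members (72.2%) and in 364 of the other genes (4.0%). Split by the mean over all 6 libraries, the median ratio was 0.529 in 58 members under 5 RPKM, 0.533 in 31 from 5 to 10 RPKM, 0.533 in 32 from 10 to 20 RPKM and 0.586 in 18 at or above 20 RPKM. The first class holds the 10 members that passed the filter through S487A alone, which lowers its median. The quartiles were 0.428 and 0.65 in the first of these classes, 0.458 and 0.59 in the next, 0.500 and 0.576 from 10 to 20 RPKM, and 0.522 and 0.678 in the class with the highest levels. Set against the S487A mean, the members' median ratio was 0.557, 0.529 and 0.525 in the S487D libraries and 1.03, 0.971 and 0.992 in the S487A libraries, so the 3 libraries of each group lay close together. Other stretches picked out on the same contrast lie on chromosome 7 from 130 to 145 Mb and on chromosome 20 from 29 to 56 Mb. Their median ratios were 0.695 (124 genes) and 0.693 (71 genes), both nearer to 1 than that of the chromosome 2 block, a difference that was not tested.

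**Figure D2:**
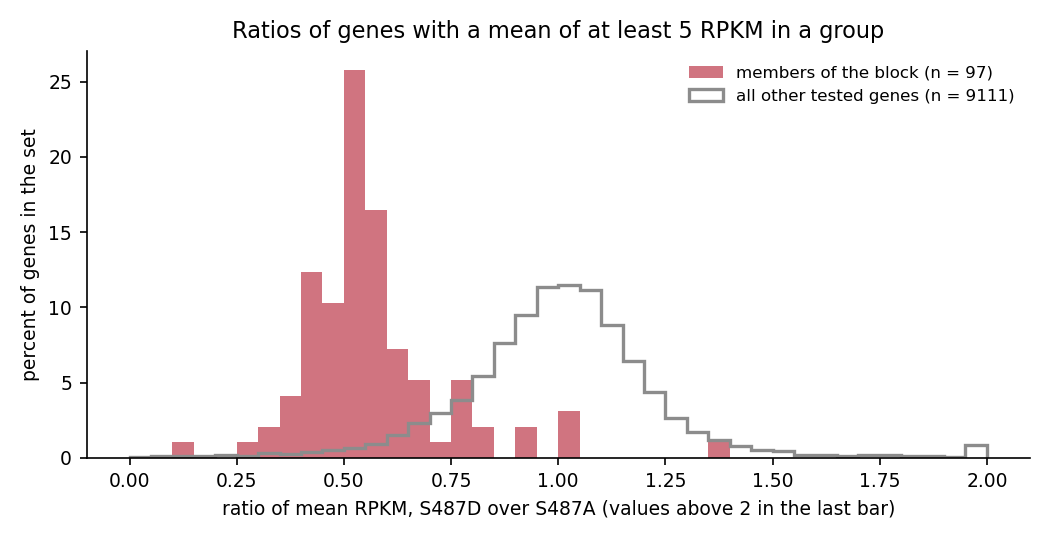
Ratio of mean RPKM, S487D over S487A (horizontal axis), for genes with a mean of at least 5 RPKM in a group, as percent of genes in each set (vertical axis). The 97 members (filled) centre on 0.536 and the 9111 other tested genes (line) on 1.01. Genes that reach 5 RPKM through S487A alone are included, and their ratios are low by construction.

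From 110 to 180 Mb the shift kept a similar depth. In 5 Mb bins of that stretch with at least 5 members, 12 in number, the members' median log2 change ran from -0.91 to -0.55. The bin from 180 to 185 Mb, which also held 5 members, had a smaller shift, with a median of -0.37. In the 32 bins of chromosome 2 that held no member and at least 5 tested genes, the median ran from -0.21 to 0.14. The lowest bin was 170 to 175 Mb, where Pdcd10, which codes for an adaptor of the cerebral cavernous malformation complex, lay at the median. The highest of the 12 was 155 to 160 Mb, with 6 members. Its 3 members with at least 5 RPKM in a group had a median ratio of 0.449. The 4 such members at 170 to 175 Mb had 0.474, so the order of these bins depends on the measure. Between 130 and 140 Mb only 3 members passed the filter, with log2 changes from -0.55 to -0.25, so the depth there rests on few genes. The longest run of neighbouring tested members with a change below 0 held 53 members, from Ttc14 at 120266883 to RGD1562629, which ends at 145513441.

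The lower limit set by the rule did not coincide with the first lowered gene. Gyg1, the glycogenin gene, opens the block at 104916735 and stood at 28.1, 24.8 and 27.0 RPKM in S487A and 24.3, 25.3 and 22.8 RPKM in S487D. The groups overlapped (ratio 0.907). The next member, Eif4g1-ps1, also overlapped (ratio 1.09). Tbl1xr1, a subunit gene of the NCoR corepressor complex at 107221987, was the first clearly lower member, with 8.77, 8.45 and 8.50 RPKM in S487A and 3.83, 3.45 and 3.76 RPKM in S487D (ratio 0.429). The next tested member, LOC682571 at 109317276, overlapped between groups (ratio 1.04). After it, Ect2 at 112769385 was lower again (ratio 0.614), so the onset at Tbl1xr1 rests on 1 gene. Outside the limit, the nearest neighbours Hltf and Hps3 had ratios of 0.919 and 0.895. The 10 nearest tested genes outside had a median log2 change of -0.10. Among them Bhlhe22, a neural transcription factor gene at 102685513, had the lowest change, at 25.5, 22.5 and 24.0 RPKM in S487A and 7.71, 6.58 and 7.96 RPKM in S487D (ratio 0.309), while its neighbours Tceal6 and Armc1 had ratios of 0.980 and 1.02.

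At the upper end most ratios lay nearer to 1 over the last members, before the limit was reached. Ppid and Etfdh, the latter coding for an enzyme that passes electrons from fatty acid oxidation to ubiquinone, start at 178354830 and 178367547 and had ratios of 0.500 and 0.431. Above them RGD1560010, LOC684529, Gucy1b3 and Map9 had ratios of 0.699, 0.804, 0.758 and 0.783. Gucy1b3, the beta subunit gene of the nitric oxide receptor guanylate cyclase, stood at 14.6, 15.2 and 14 RPKM in S487A and 11.7, 9.71 and 11.8 RPKM in S487D, without overlap. The block closes with 2 fibrinogen chain genes. Fgg stood at 1.34 ± 0.14 and 0.75 ± 0.18 RPKM and Fgb at 5.93 ± 0.42 and 3.40 ± 0.65 RPKM. Plrg1, a splicing factor gene that starts at 182040338, close above the end of Fgb, stood at 32.1, 31.9 and 35.0 RPKM in S487A and 35.5, 34.2 and 35.6 RPKM in S487D. The 10 nearest tested genes outside had a median log2 change of 0.04 and ranged from -0.56 to 0.18, with 4 of them below 0. Among these, Dchs2, the next above Plrg1, was lower in every S487D library (1.90 ± 0.032 and 1.24 ± 0.086 RPKM, ratio 0.653). LOC102551095 at 183808108 was lower in every S487D library too (ratio 0.613).

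**Figure D3:**
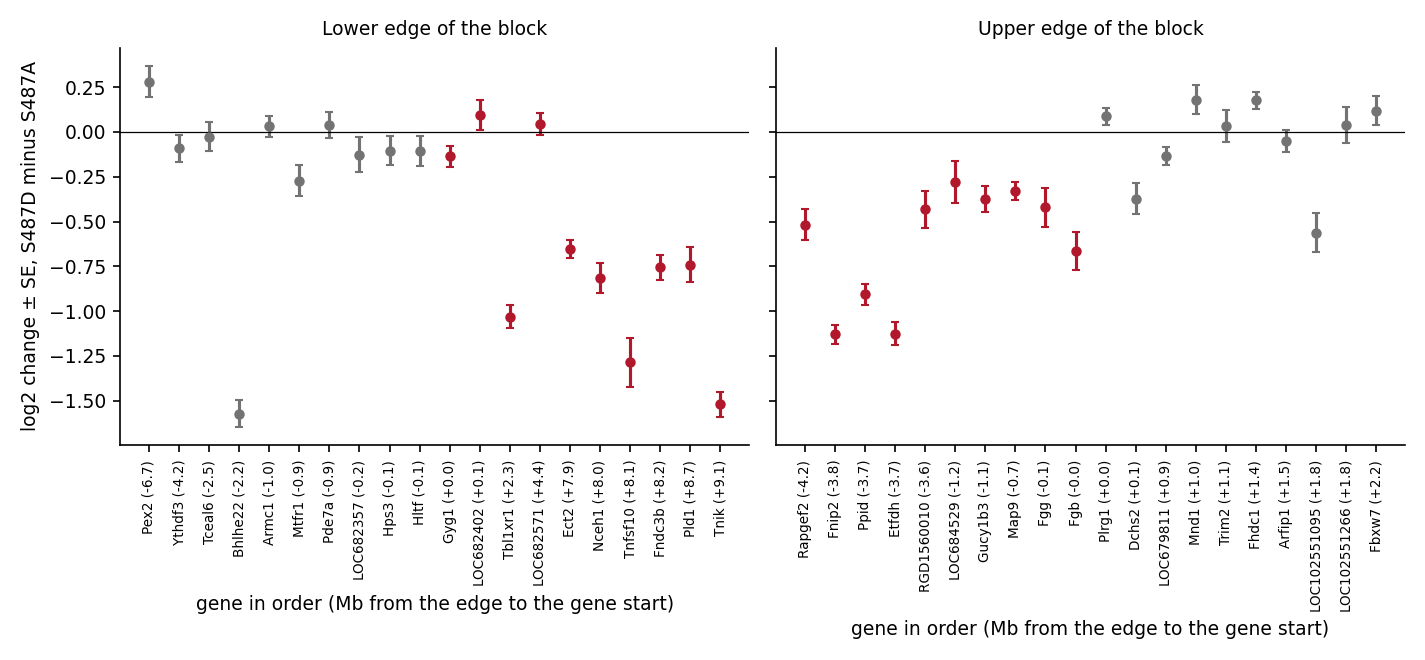
Log2 change ± SE (vertical axis) of the 10 tested genes on each side of the lower and the upper limit, in gene order, with the distance in Mb from the limit to the gene start in parentheses; members in red, genes outside in grey. At the lower limit the members before Tbl1xr1 and LOC682571 after it lie near 0, while Tbl1xr1 and the members from Ect2 on are lower. At the upper limit the members above Etfdh lie nearer to 0 than Etfdh does.

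Genes of the secretory pathway were among the most highly expressed members and were lower in S487D. Serp1, which protects the ER translocon under stress, was the most abundant protein-coding member. It stood at 102, 93.6 and 99.8 RPKM in S487A and 62.0, 56.2 and 61.8 RPKM in S487D, without overlap (ratio 0.609, log2 change -0.71, SE 0.052). Selt, an ER selenoprotein gene, stood at 61.3 ± 4.2 and 32.3 ± 1.9 RPKM (ratio 0.528). Ssr3, a subunit gene of the translocon-associated protein complex, stood at 49.6 ± 3.0 and 29.0 ± 1.4 RPKM (ratio 0.585). All 3 were lower in every S487D library.

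Sec62, which joins the translocon for post-translational import, stood at 26.7, 25.7 and 25 RPKM in S487A and 12.2, 13.6 and 12.4 RPKM in S487D (ratio 0.493). Golim4, a Golgi membrane protein gene, was among the most lowered of the abundant members, at 49.1, 45.5 and 45.4 RPKM against 19.3, 18.5 and 19.9 RPKM (ratio 0.412). Of 21 members of the ER, Golgi and membrane traffic list that passed the filter, 20 had groups that did not overlap, all lower in S487D, beside 29.5% of all tested genes and 87.8% of tested members, and their median log2 change was -0.78. The exception was Mgst2, a glutathione transferase gene, at 1.98 ± 0.73 and 1.70 ± 0.41 RPKM. Ufm1, a ubiquitin-like modifier gene that serves the ER, had one of the smaller shifts, from 27.8 ± 1.3 to 21.4 ± 1.0 RPKM. Tm4sf4, a tetraspanin-like membrane protein gene, stood at 79.7 ± 4.3 and 55.4 ± 4.0 RPKM (ratio 0.695).

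Signalling genes showed the same direction. Pik3ca, the catalytic subunit of PI3-kinase alpha that acts below the insulin receptor, stood at 9.32, 9.25 and 8.64 RPKM in S487A and 4.67, 3.91 and 4.62 RPKM in S487D, without overlap (ratio 0.485). Siah2, a ubiquitin ligase gene of the hypoxia response, stood at 22.3, 22.3 and 21.7 RPKM against 9.75, 7.86 and 9.23 RPKM (ratio 0.405). Tnik, a kinase gene of the Wnt pathway, had one of the largest differences, at 7.13, 7.23 and 7.07 RPKM against 1.77, 1.95 and 1.80 RPKM (ratio 0.257). Its libraries agreed closely within each group.

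The folliculin partner Fnip2 stood at 24.8 ± 0.60 and 10.8 ± 0.50 RPKM. The Notch coactivator gene Maml3 stood at 10.0 ± 0.77 and 4.38 ± 0.34 RPKM, and Pdcd10 at 38.9 ± 2.8 and 20.2 ± 1.3 RPKM. Of 19 members of the signalling list that passed the filter, 18 did not overlap and were lower, beside the same 29.5% of all tested genes and 122 of 139 tested members, with a median log2 change of -0.90. The exception, Rap2b, is described below. Tnfsf10, the death ligand TRAIL, stood at 7.01 ± 0.45 and 2.32 ± 0.68 RPKM.

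Transcription, chromatin and RNA genes followed. Actl6a, an actin-related subunit gene of BAF chromatin remodellers, stood at 35.1, 35.2 and 35.2 RPKM against 23.4, 19.8 and 23.1 RPKM, and its row overlaps another gene's. The histone methyltransferase gene Setd7 had a ratio of 0.533 and the ETS factor gene Elf2 of 0.551. Of 19 tested members of that list, 18 did not overlap and were lower (median log2 change -0.78), and Shox2 was the exception. All 21 tested members of the RNA, translation and protein modification list were lower without overlap (median -0.78). Beside both counts stand 29.5% of all tested genes and 87.8% of tested members that were lower without overlap. Among them the exosome subunit gene Exosc8 had a ratio of 0.551, the initiation factor gene Eif2a 0.539, the N-terminal acetyltransferase subunit gene Naa15 0.500 and Nmd3, an exporter of the large ribosomal subunit, 0.500.

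Genes of mitochondria and of cell division were lower as well. Mfn1, which fuses outer mitochondrial membranes, stood at 22.2 ± 1.5 and 11.6 ± 0.51 RPKM. Gmps, which makes GMP for nucleotide supply, stood at 41.0 ± 2.6 and 23.8 ± 1.5 RPKM, and Gfm1, a mitochondrial elongation factor gene whose row overlaps that of Lxn, at 32.0 ± 1.5 and 18.7 ± 1.3 RPKM. Of 14 tested members of the mitochondria and metabolism list, 12 were lower without overlap (median -0.76), with Gyg1 and Mgst2 as the exceptions. All 18 tested members of the cell division, cilia and cytoskeleton list were lower without overlap (median -0.74), again beside 29.5% of all tested genes and 87.8% of tested members. They include the centriole kinase gene Plk4 (ratio 0.581), the cytokinesis factor gene Ect2 (0.614), Smc4 (0.503), the Bardet-Biedl gene Bbs7 (0.356) and the ciliary transport gene Ift80 (0.380). Anxa5, a phospholipid-binding annexin gene, had the smallest change of that list, from 28.5 ± 2.3 to 22.2 ± 0.33 RPKM.

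Receptor, channel and secreted protein genes mostly had low levels. Of 34 members on the receptor, channel and synapse list, 24 (70.6%) did not pass the filter, beside 74.2% of all members, and 18 of these 24 had reads while 6 were at 0. Of the 10 that did, 9 were lower without overlap (median -0.62), beside 29.5% of all tested genes and 87.8% of tested members. Kcnmb2, an auxiliary subunit gene of the BK potassium channel, had the lowest log2 change of all members (-2.08, SE 0.17), at 6.90, 4.94 and 6.18 RPKM in S487A and 0.413, 0.445 and 1.2 RPKM in S487D. P2ry1, a purinergic receptor gene, overlapped between groups at 2.09 ± 0.17 and 1.70 ± 0.26 RPKM. The 6 tested members of the secreted protein list were lower without overlap (median -0.82), beside the same shares. Of its 20 members, 14 did not pass the filter, 8 of them at 0. Beside all of these lists stands the median log2 change of -0.01 over all genes tested. The lists were drawn up with the block in view, share members and hold some loose assignments, so their counts restate the block.

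**Figure D4:**
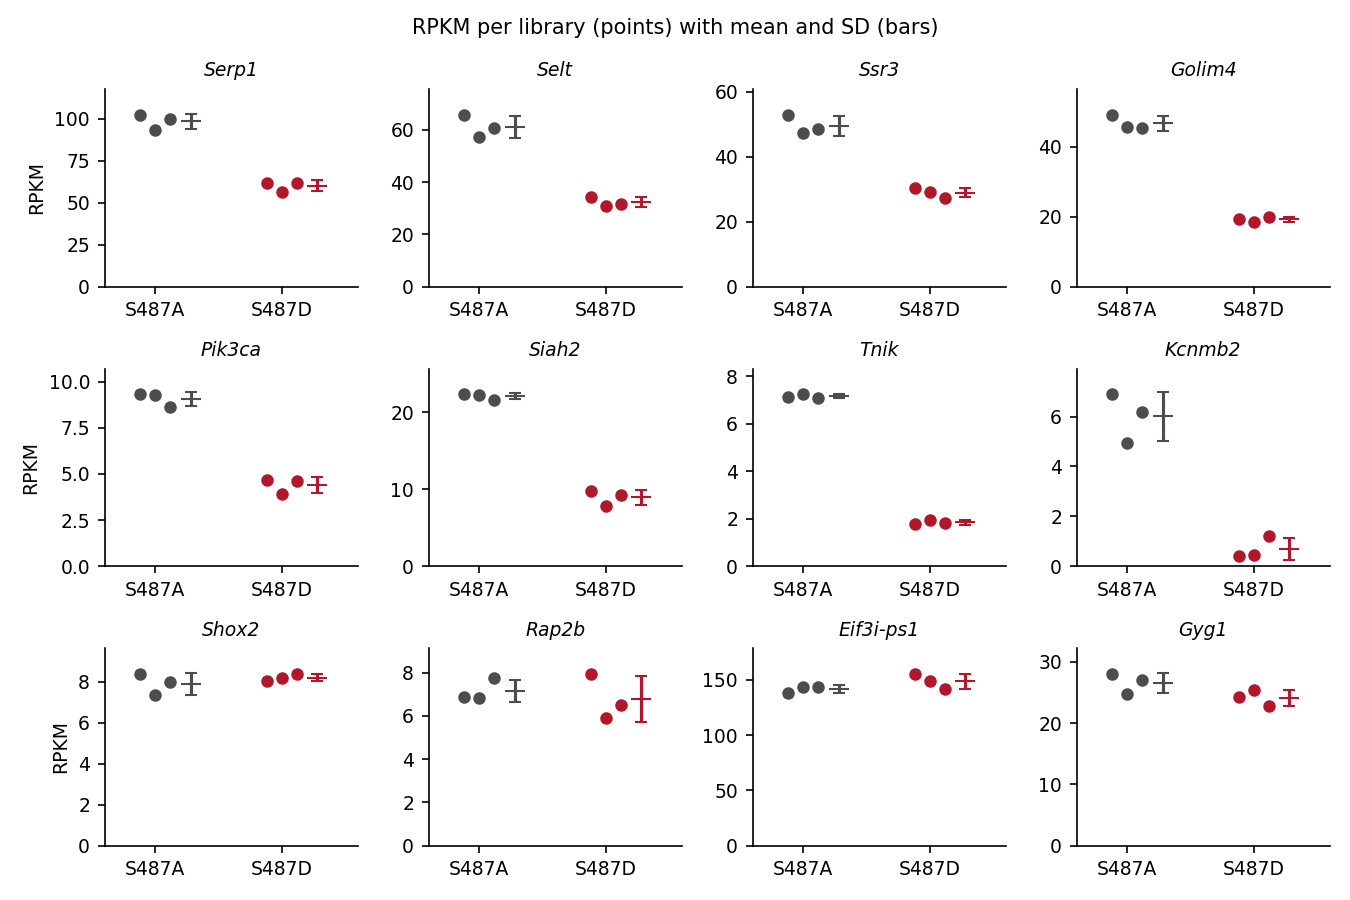
RPKM (vertical axes, from 0) of 12 members in each S487A (grey) and S487D (red) library, with the mean and SD beside the points. The upper 8 members have no overlap between the groups, and in Shox2, Rap2b, Eif3i-ps1 and Gyg1 the groups overlap.

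Expressed neighbours that are transcribed away from each other from starts less than 1 kb apart numbered 10 pairs. Both partners had a ratio under 0.75 in 9 of them. Among all 139 tested members only 23 had a ratio of 0.75 or more, so nothing about shared promoters is read from the count of pairs. Serp1 and Eif2a, with 83 bases between them, had ratios of 0.609 and 0.539. Exosc8 and Alg5, a glycosylation enzyme gene, with 54 bases between them, had 0.551 and 0.510. The tenth pair was split. Shox2, a homeobox gene on the minus strand from 164118175 to 164126783, stood at 8.38, 7.33 and 7.99 RPKM in S487A and 8.02, 8.16 and 8.37 RPKM in S487D (ratio 1.04). Its partner Rsrc1, a splicing-related gene that starts 114 bases away on the plus strand, stood at 13.4, 13.1 and 13 RPKM against 7.85, 6.96 and 6.87 RPKM (ratio 0.55). The Shox2 groups overlapped and the Rsrc1 groups did not.

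Of the 139 tested members, 17 had overlapping groups: 8 listed as protein-coding, 6 as pseudogenes and 3 without a RefSeq match. The 8 members with a log2 change of 0 or more comprised Shox2, 3 pseudogenes by RefSeq, Kmt5al1 (deposited as LOC100909949), and 3 rows without a RefSeq match, LOC682571, LOC102549153 and LOC103691574. Rows other than Shox2 and Eif3i-ps1 are named here after their values were seen. The groups overlapped in all 8. Among the 121 tested members listed as protein-coding, 113 were lower without overlap, and among the 7 listed as pseudogenes 1 was, beside 29.5% of all tested genes. In 9 tested members the span on the chromosome equalled the row's length, so the row has no intron. Of these 9, 8 had a ratio of at least 0.75, against 15 of the 130 with a longer span. Their median log2 change was -0.01, against -0.75 for the 130 and 0.03 for the 554 intronless genes tested elsewhere. Rap2b, a small GTPase gene without introns, was the intronless protein-coding row with a full symbol. It stood at 6.86, 6.83 and 7.75 RPKM in S487A and 7.95, 5.90 and 6.52 RPKM in S487D (ratio 0.950).

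Reads of a copy and of its parent gene can be assigned to either, so the level of a copy is uncertain. Eif3i-ps1, a copy of the translation factor gene Eif3i on chromosome 5, had the highest RPKM of all members, at 138, 143 and 144 in S487A and 156, 149 and 142 in S487D. Eif3i itself stood at 244 ± 12 and 244 ± 6.0 RPKM. Pgam1-ps10, deposited as LOC361963, had the highest log2 change of the block (0.40), at 4.10 ± 1.47 and 5.55 ± 0.40 RPKM, and its parent Pgam1, a glycolytic mutase gene, stood at 437 ± 17.7 and 483 ± 4.4 RPKM (log2 change 0.15). Psat1-ps1 had a log2 change of -0.08 and Psat1, a serine synthesis gene, -0.19. Eif4g1-ps1 and Eif4g1 had 0.10 and 0.03, and Kmt5al1 and Kmt5a, deposited as Setd8, had 0.08 and 0.02. Hsp90ab1-ps8 had -0.04 and its parent 0.08. Most parents had changes near the median of all genes, so these pairs do not show whether a copy's reads came from its parent. Spin1-ps3 was equally unlowered, at 3.33 ± 0.42 and 3.33 ± 0.67 RPKM, while its parent Spin1 was at 0 in the S487A libraries and at 0.0765 ± 0.066 RPKM in S487D. Nhp2-ps1, whose row overlaps that of Nhlrc3, differed from these, with a log2 change of -1.05; Nhlrc3, the gene it overlaps, had -1.11.

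**Figure D5:**
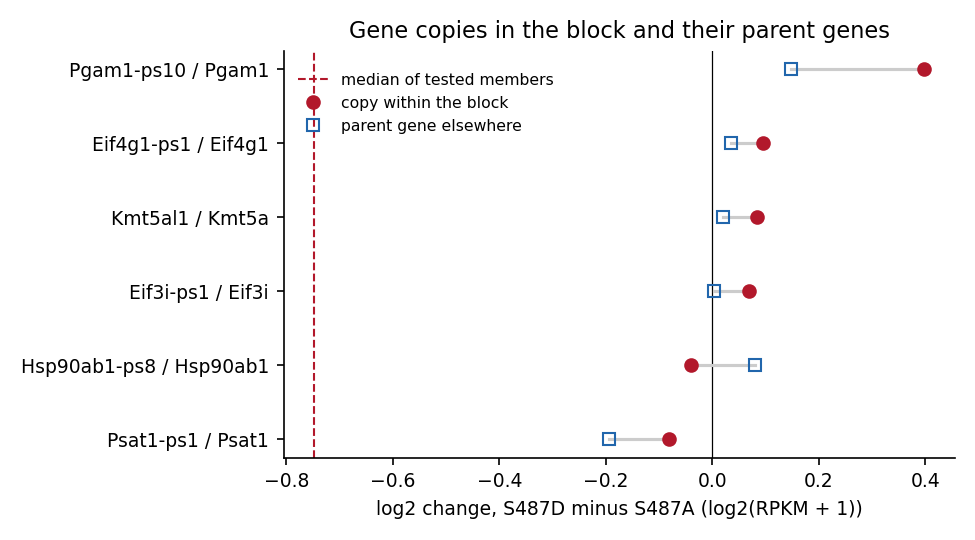
Log2 change (horizontal axis, S487D minus S487A) of 6 gene copies in the block (filled circles) and of their parent genes on other chromosomes (open squares); the dashed line is the median of tested members, -0.75. The copies lie between -0.08 and 0.40 and the parents, which are outside the block, between -0.19 and 0.15.

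Members below the filter had fewer reads in S487D in sum. The 167 of them held 798, 859 and 752 reads in the S487A libraries and 438, 394 and 410 reads in the S487D libraries, not scaled to depth. The mean was lower in S487D for 112 and higher for 55. Of the 31 with at least 30 reads over the 6 libraries, 25 were lower, 10 had a ratio of 0.75 or more, and the median ratio was 0.493. The shares among all rows below the filter are not given here, so these counts lack a background. Over the whole table, rows with any read numbered 19449 to 19583 in the S487A libraries and 18956 to 19175 in the S487D libraries. Among the 139 tested members, 23 had a ratio of 0.75 or more. Mecom, a zinc finger oncogene, had 78, 68 and 57 reads against 24, 23 and 18. Arl14, a small GTPase gene, had 24, 31 and 19 reads against 1, 1 and 1, and Lrrc34 had 28, 25 and 33 against 1, 2 and 4. Its row overlaps that of Lrriq4, which had 2.36 ± 0.61 and 0.155 ± 0.081 RPKM, so these 2 are not independent. Gria2, an AMPA receptor subunit gene, went the other way, with 9, 14 and 15 reads against 30, 23 and 35, and Postn, the matrix protein periostin, had 12, 11 and 7 against 17, 19 and 10. These genes were picked after their reads were seen.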

How the data were processed

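The labels' protocols name Trizol and a TruSeq RNA kit that keeps no strand information. Reads from rows that overlap on opposite strands therefore cannot be told apart by strand, and how reads in overlaps were counted is not known. Among the tools that the submitters' processing notes list are bcl2fastq (2.17), cutadapt and TopHat2 (2.0.13), with rn6 as genome build. Which counter and annotation were used is not given in the sources used here. RPKM values are as deposited by the authors, per gene and library. Multiplied by gene length, all RPKM up to 2000 reads (100%) lay within 0.05 of whole reads, and the sum of these reads is the depth used here. RPKM is relative to all assigned reads, so a change in abundant genes moves every other value.

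The 12527 genes that reached 1 RPKM in 3 or more libraries entered a limma fit (version 3.58.1, R 4.3.3) of log2(RPKM + 1) with an intensity trend, all 6 libraries, group as the only term, two-sided, and Benjamini-Hochberg adjustment over all tested genes. Ratios use mean RPKM without a pseudocount. Simulated reads for these genes, tested in the same fit of S487D against S487A, gave recovery of 14% of genes at 1.2-fold, 68% at 1.5-fold, 88% at 2-fold and 100% at 4-fold, with 11 false among 146 calls. Only a small set of genes was changed there, all lowered in S487D, with an assumed spread between libraries. In the data the fit called 44.4% of genes, so these rates need not hold for it. Groups and replicate numbers come from sample titles. RefSeq (GRCr8) served for names and promoters. Tables were handled with Python 3.11.15, pandas 2.3.3 and numpy 2.4.6.

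The members, lists and alternatives were chosen with earlier results of these data known. Named genes are the 15 most abundant and 15 most lowered members, members with a change of 0 or more, 10 tested genes on each side of a limit, up to 8 members per role list and the member nearest each bin's median; some of these are given. Rows with provisional names, members whose groups overlap, copies, head-to-head partners and genes below the filter were named after their values were seen. Role lists follow general knowledge of the genes and overlap each other. Some assignments are loose. Dhx36 stands on the membrane traffic list as well as the RNA list, and Pgrmc2 and Gmps on the RNA and the mitochondria lists. The counts of a list therefore do not describe its role alone.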

Additional observations from a re-analysis of the deposited data

How the results depend on the processing

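Of 101 values recomputed over 16 settings, 85 stayed within 1.5 times the reported count or within 1 SD between replicates of the reported value, 16 moved further and 0 changed sign. Within those bounds, members called lower numbered 88 with a filter at RPKM 5, where fewer were tested, and 134 without a filter (121 reported). Members with a change of 0 or more numbered 12 after quantile normalization, 10 after median centring and 7 to 11 with a library left out (8 reported). Members lower without overlap numbered 88 with the filter at RPKM 5 and 153 without a filter (122 reported). The median log2 change of tested members (-0.75) was -0.88 with a pseudocount of 0.1, -0.89 with 0.01, -0.89 with voom on the reads worked out, -0.81 with a filter at RPKM 5, -0.68 after quantile normalization and -0.69 after median centring. Without a filter it was -0.15, where most rows added have few reads, and 62 members then had a change of 0 or more; with the filter at RPKM 5 there were 5. Counting only members listed as protein-coding, a setting chosen after seeing the data, left 2 (Shox2 and Kmt5al1). Members called higher numbered 1 without a filter (Gria2), 2 after quantile normalization (Pgam1-ps10 and Kmt5al1) and 1 after median centring (Eif3i-ps1). Leaving out each library in turn gave 0 to 1 (Pgam1-ps10 without S487A replicate 2), with 117 to 120 members called lower and a median log2 change from -0.77 to -0.72. With the left-out rows put back, 1 row was called higher and the ratio of read shares was 0.599. Same-numbered libraries of the groups did not deviate together (correlations of 0.00, -0.06 and 0.01), beside -0.10 to 0.10 for unlike numbers. These values show no sign of pairing but cannot exclude that same-numbered libraries were prepared together. With the replicate number as a block, 122 members were called lower and 0 higher. Depth limits members under 1 RPKM, and their single values carry wide counting error.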
